A study of Morchella sextelata with 15 samples.

Results

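Acetochlor is a chloroacetanilide herbicide that is applied to soil, and in plants it blocks the elongases that make very-long-chain fatty acids. Morchella sextelata is a cultivated black morel, an ascomycete fungus whose mycelium, a network of hyphae, grows in the same soil as weeds. The response of that mycelium to acetochlor was described over all measured transcripts: its size, its direction, the abundance range it covered, transcripts switched on or off, and the spread between libraries. The members were the 6 of 15 RNA libraries whose treatment label reads Acetochlor (3 libraries) or no herbicide (3 libraries). The other 9 libraries came from mycelium with trifluralin, pendimethalin or S-metolachlor, 3 of each.

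All groups carried the genotype label WT and were grown on potato dextrose agar for 5 days at 20 °C. The acetochlor cultures received 10 times the product's normal rate of use, and the control plates had none of the 4 herbicides. Neither the concentration in the agar nor a solvent on the control plates is stated in the labels. The labels do not say whether the 3 libraries of a group came from separate cultures. P-values of the main fit therefore measure a spread between libraries that may be technical, pooled over all 15 libraries. Acetochlor libraries held 22923346 to 24592427 expected counts, and control libraries 23921235 to 24309184, so the totals lay close together. The TMM factors by which these totals were scaled were 0.928, 0.931 and 1.05 for acetochlor and 0.901, 0.982 and 0.830 for control, with control replicate 3 the lowest.

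The rows of the table carry names of a de novo transcript assembly, and none of the 20602 names was found in the reference table of 13182 morel genes. With no annotation of the rows, no pathway, such as the fungal fatty acid elongases, could be followed, and the label mycelium could not be checked against marker genes. Transcripts are therefore described by their identifier, level and change. RNA came from whole mycelium, where fewer hyphae of a kind and less RNA per hypha cannot be told apart, and every level is a share of the library.

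The control libraries did not all lie close together. Levels are given as CPM, the count scaled to library size. Of the 12369 transcripts with a mean of at least 1 CPM over the 6 libraries, 23.5% were at least 2-fold apart between control replicates 2 and 3. The other control pairs differed in 12.2% (replicates 1 and 3) and 12.5% (replicates 1 and 2), and the acetochlor pairs in 13.0% to 15.8%. The 9 pairs of an acetochlor with a control library differed in 18.5% to 32.1%, with a median of 25.1%. The closest of these was acetochlor replicate 3 with control replicate 2 at 18.5%, below the distance between control replicates 2 and 3. Acetochlor replicate 2 with control replicate 2, at 23.2%, also lay just below that distance. Results that lost their call or moved by more than 1.5 times without 1 library are given with that value.

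**Figure D1:**
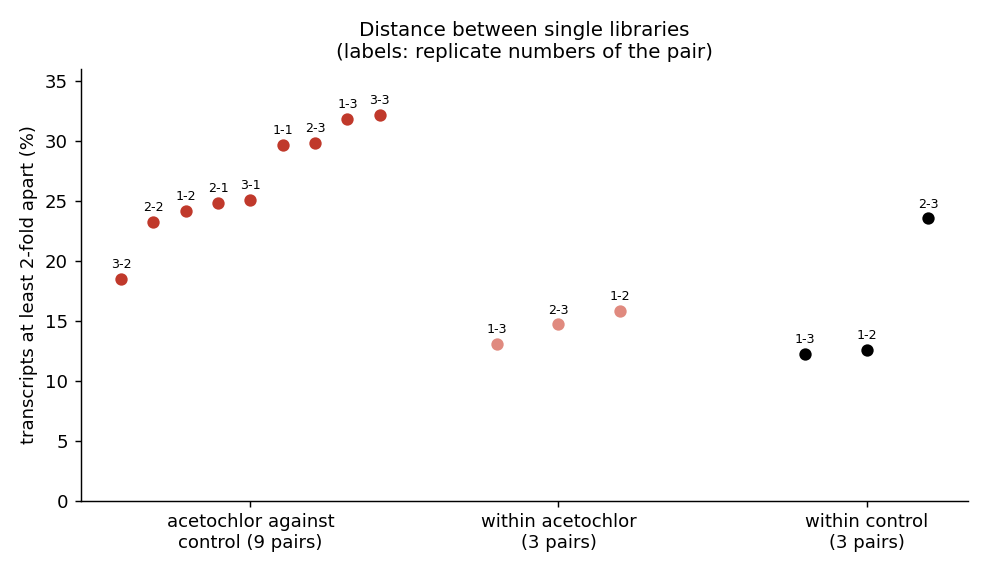
Share of 12369 transcripts at least 2-fold apart (vertical axis, %) in each pair of single libraries, with 1 point per pair labelled by its replicate numbers (for the mixed pairs, acetochlor first). The 9 mixed pairs lie between 18.5% and 32.1%, the 3 acetochlor pairs between 13.0% and 15.8%, and the control pair 2-3, at 23.5%, lies among the mixed pairs.

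Transcripts were called changed with acetochlor in both directions. Of 17555 transcripts tested, 923 rose (5.26%) and 783 fell (4.46%), together 1706 or 9.72% (edgeR's quasi-likelihood test over all 15 libraries, adjusted p under 0.05). With only the 6 libraries in the fit 784 were called, 676 of them among the 1706. Over all tested transcripts the log2 fold change had a median of -0.0043, with 10% of transcripts below -1.30 and 10% above 1.15. The risen transcripts had a median log2 fold change of 1.35, a 2.55-fold rise, and the fallen ones of -1.45, a 2.72-fold fall. Which direction was the larger depended on the libraries, since rises were 54.1% of the calls but 45.5% (357 of 784) with only the 6 libraries in the fit, 47.3% (302 of 638) without control replicate 1 and 49.2% (458 of 931) without control replicate 3.

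Most changes were moderate. A call together with a change of at least 2-fold held for 1209 transcripts (6.89% of those tested), 643 higher and 566 lower. It held for 787 without acetochlor replicate 1 (472 higher and 315 lower) and 703 without control replicate 3 (358 and 345). Falls were the more numerous without control replicate 1, where it held for 543 (258 higher and 285 lower). They were also the more numerous with only the 6 libraries in the fit, with 752 (341 and 411), and with DESeq2, with 1823 (903 and 920). The calls comprised 497 transcripts under 2-fold, 686 between 2-fold and 4-fold, 265 between 4-fold and 8-fold, 110 between 8-fold and 16-fold and 148 beyond that. Falls were the more numerous from 4-fold to 8-fold, with 117 higher and 148 lower, and from 8-fold to 16-fold, with 50 and 60. At 16-fold and over rises were, with 98 higher and 50 lower, and 67 and 31 without control replicate 1. Limma on log2(FPKM + 1), where low levels are damped, called 31 higher and 10 lower at that size. Of the 148 transcripts at 16-fold and over, 36 had no counts in the lower group, where the fitted fold depends on a small constant added in the fit, and 73 were counted in all 3 libraries of the lower group. A test of whether a change exceeded 2-fold (edgeR glmTreat, adjusted p under 0.05) passed 209 transcripts (1.19%), 127 higher and 82 lower, and 106 without acetochlor replicate 1, 89 without control replicate 1 and 129 without control replicate 3. Rises outnumbered falls in each of these counts, with 88 and 18, 62 and 27, and 89 and 40.

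**Figure D2:**
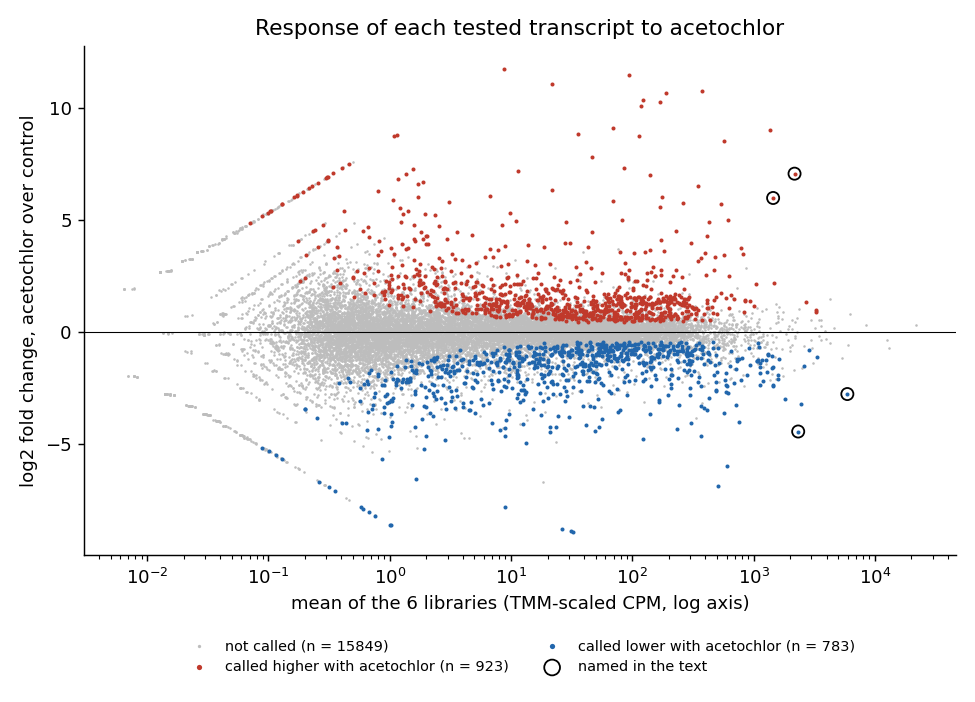
Log2 fold change of acetochlor over control (vertical axis) against the mean of the 6 libraries in CPM (horizontal axis, log scale), 1 point per tested transcript. Red points mark the 923 called higher, blue points the 783 called lower, grey points the rest, and rings the 4 transcripts named by rule. The straight streaks at the left are transcripts with few or no counts in one group.

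For most transcripts without a call, the data leave room for a 2-fold change. The 95% interval of the log2 fold change lay within 2-fold in both directions for 4873 of 15759 uncalled transcripts with an interval, or 30.9%. The interval reached a median of 0.99 to either side of the estimate on the log2 scale in that set. It also lay within 2-fold for 140 of the 1706 called transcripts, so that these changes were under 2-fold at that confidence.

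As a description, since the calls were made from the same libraries, the single libraries were set beside the calls. In 911 of the 923 risen transcripts every acetochlor library lay above every control library, and in 778 of the 783 fallen ones every acetochlor library lay below. Such a separation was also seen in 3389 of the 15849 uncalled transcripts, and in 28.9% of all tested, against 9.72% called. A gap of at least 2-fold between the nearest libraries of the groups was also counted, with every library of the higher group at 1 CPM or more. It was found for 252 transcripts above and 318 below control, together 3.25% of those tested. Of these, 224 and 252 were among the calls. A gap of at least 4-fold was found for 95 above and 85 below (1.03% together), of which 93 and 74 were among the calls.

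A core of calls did not rest on any 1 library. When each of the 6 libraries was left out in turn, 553 of the 1706 calls were made each time in the same direction, 273 higher and 280 lower. Their median absolute log2 fold change was 1.90, against 1.40 over all calls, and 481 of them were at least 2-fold. Staying called with fewer libraries itself favours large changes, so nothing is read from that difference. Without control replicate 1 the test made 638 calls, of which 627 were among the 1706. Leaving out control replicate 3 gave 931 calls, 869 of them among the 1706, and leaving out acetochlor replicate 1 gave 984, of which 908 were. Without control replicate 2, which lay nearest to the acetochlor libraries, 1902 transcripts were called.

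Transcripts were named among calls of at least 2-fold whose groups did not overlap. The 2 of these that rose most in CPM were among the most abundant with acetochlor and far down the ranking without herbicide. TRINITY_DN7052_c0_g1_i1_1 held 6081, 3403 and 3475 CPM in the acetochlor libraries, against 45.2, 44.2 and 8.35 CPM in the control libraries. Control replicate 3 was the lowest, and every acetochlor library stood far above every control. The log2 fold change was 7.05 (SE 0.74, edgeR adjusted p = 0.000195). Ranked by mean FPKM, a level per transcript length, it was number 9 of the 20602 transcripts with acetochlor and number 4081 in control.

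TRINITY_DN4566_c0_g1_i2_4 held 2672, 1140 and 4745 CPM with acetochlor, against 43.5, 46.2 and 47.1 CPM in control. The controls lay close together, whereas the acetochlor libraries were spread over several-fold, with replicate 2 the lowest and replicate 3 the highest. The log2 fold change was 5.97 (SE 0.51, edgeR adjusted p = 5.24e-05). Its rank by mean FPKM was 11 with acetochlor and 2570 in control.

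Among the calls of at least 2-fold without overlap, the 2 transcripts with the largest falls in CPM were among the most abundant of untreated mycelium. TRINITY_DN4445_c0_g1_i2_3 held 1965, 2281 and 293 CPM with acetochlor, against 10038, 7388 and 13609 CPM in control. Acetochlor replicate 3 was far below the other acetochlor libraries. The log2 fold change was -2.77 (SE 0.77, edgeR adjusted p = 0.0403), and the rank by mean FPKM was 127 with acetochlor and 10 in control. This call was lost with only the 6 libraries in the edgeR fit (adjusted p = 0.0714) and without acetochlor replicate 1 (0.0882), 2 (0.0604) or 3 (0.0815) or control replicate 1 (0.0919) or 3 (0.1), and the adjusted p ran from 0.0016 to 0.1 over all alternatives.

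TRINITY_DN14322_c0_g1_i1_1 held 83.8, 187 and 345 CPM with acetochlor, against 5701, 5568 and 2109 CPM in control. Control replicate 3 was the lowest control and still lay well above the highest acetochlor library. The log2 fold change was -4.44 (SE 0.85, edgeR adjusted p = 0.00726), and -5.04 without acetochlor replicate 3. Its rank by mean FPKM was 480 with acetochlor and 7 in control.

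**Figure D3:**
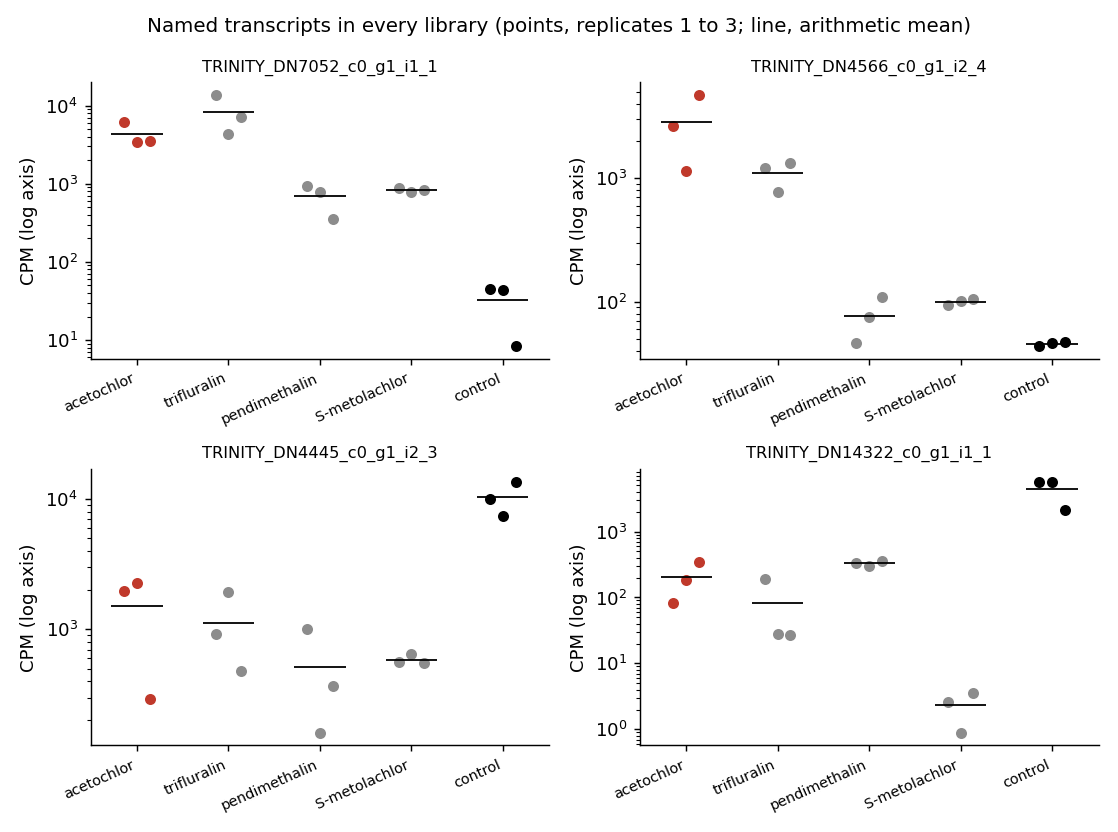
CPM (vertical axes, log scale) of the 4 named transcripts in each library of the 5 groups, with 1 point per library in the order of replicates 1 to 3 and a line at the arithmetic mean. Acetochlor points (red) and control points (black) do not overlap in any panel, which the naming rule required. The grey points show the other herbicides.

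The same 4 transcripts had levels with the other herbicides that were set beside acetochlor in tests of the difference itself. They had been chosen for their difference between acetochlor and control, a choice that favours extreme acetochlor levels. The p-values of these 4 transcripts do not allow for that choice. Each herbicide was used at the same multiple of its own rate, so concentrations may differ. In these contrasts, 384 transcripts (2.19%) were called between acetochlor and trifluralin, 413 (2.35%) between acetochlor and pendimethalin and 6555 (37.3%) between acetochlor and S-metolachlor. TRINITY_DN7052_c0_g1_i1_1 averaged 4319 ± 1526 CPM with acetochlor, 8391 ± 4822 with trifluralin, 693 ± 304 with pendimethalin and 832 ± 45.2 with S-metolachlor (SD, n = 3 each). It was higher with acetochlor than with pendimethalin, by 2.64 on the log2 scale (edgeR adjusted p = 0.0411), and than with S-metolachlor, by 2.38 (0.00807). Against trifluralin the log2 difference was -0.96 (95% interval -2.20 to 0.28, edgeR adjusted p = 0.359), an interval that reaches from a several-fold lower to a slightly higher level with acetochlor.

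TRINITY_DN4566_c0_g1_i2_4 averaged 2852 ± 1809 CPM with acetochlor, 1103 ± 288 with trifluralin, 76.7 ± 30.9 with pendimethalin and 99.7 ± 5.30 with S-metolachlor (SD, n = 3 each). It was higher with acetochlor than with pendimethalin by 5.22 (edgeR adjusted p = 0.000237) and than with S-metolachlor by 4.84 (2.23e-05) on the log2 scale, while against trifluralin the log2 difference was 1.37 (95% interval 0.46 to 2.28) and missed the adjusted threshold (0.0955). TRINITY_DN4445_c0_g1_i2_3 averaged 1513 ± 1068 CPM with acetochlor and 1118 ± 755, 514 ± 444 and 585 ± 52.4 CPM with trifluralin, pendimethalin and S-metolachlor, and none of the 3 differences was called (edgeR adjusted p = 0.772, 0.267 and 0.164). TRINITY_DN14322_c0_g1_i1_1 was higher with acetochlor, at 205 ± 131 CPM, than with S-metolachlor, at 2.36 ± 1.38 CPM, with a log2 fold change of 6.44 between them (SE 0.94, adjusted p = 0.000296 by edgeR). With trifluralin it was at 81.6 ± 93.2 CPM and with pendimethalin at 328 ± 30.0 CPM, and neither difference from acetochlor was called (edgeR adjusted p = 0.333 and 0.665).

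The response reached over the whole abundance range, and calls were more frequent among abundant transcripts. Binned by the mean CPM of the 6 libraries, 112 of 5186 transcripts under 1 CPM were called (2.16%), 436 of 5043 at 1 to 10 CPM (8.65%), 682 of 5045 at 10 to 100 CPM (13.5%), 438 of 2141 at 100 to 1000 CPM (20.5%) and 38 of 140 at 1000 CPM and over (27.1%). The precision rose over much of this range, since the median SE of the log2 fold change was 0.94 under 1 CPM and 0.23 at 100 to 1000 CPM. The calls under 1 CPM had a median absolute log2 fold change of 3.52 and those at 10 to 100 CPM of 1.13, so only large changes were detectable at low counts. With no filter on low counts, 1.09% of the bin under 1 CPM were called, 52 higher and 38 lower. Binned by mean FPKM instead, 2.30% were called under 1 FPKM and 32.1% at 1000 FPKM and over.

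At the top of the range falls were more numerous. Among the transcripts at 1000 CPM and over 8 rose and 30 fell, and all 140 together had a median change of -0.43 on the log2 scale. The calls in this bin numbered 5 higher and 14 lower without control replicate 1, 5 and 17 without acetochlor replicate 1, 6 and 16 without acetochlor replicate 3, 5 and 16 with only the 6 libraries in the fit, and 18 and 41 with DESeq2. Per length, at 1000 FPKM and over, 6 of 53 rose and 11 fell. In the next bin, 100 to 1000 CPM, rises were the more numerous, 244 against 194. Per length, at 100 to 1000 FPKM, they were not, with 143 higher and 143 lower.

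**Figure D4:**
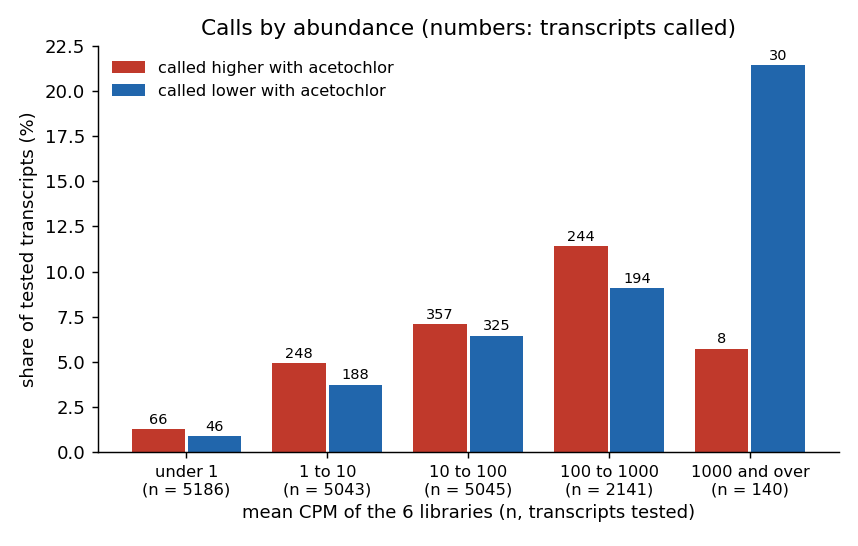
Share of tested transcripts called higher (red) and lower (blue) with acetochlor (vertical axis, %) in bins of the mean CPM of the 6 libraries, with the number of calls above each bar. Both shares grow up to 1000 CPM; in the highest bin 8 transcripts were higher and 30 lower.

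The most abundant transcripts differed more between than within the groups in most pairs of libraries. Of the 50 transcripts with the highest FPKM in a library, 36 to 39 were shared by 2 acetochlor libraries, 30 to 38 by 2 control libraries and 19 to 32 by an acetochlor and a control library. Control replicates 2 and 3 shared 30, within the range of the mixed pairs. Of the 50 transcripts with the highest mean FPKM in the acetochlor libraries, 27 were also among the 50 highest in control. The acetochlor list held 11 transcripts called higher, against 5.26% of all tested, and the control list 16 called lower, against 4.46% of all tested. Ranking by a group's own mean favours transcripts that are higher in that group, so nothing is read from these counts. Over the 500 highest of each group, 355 were shared.

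The called transcripts held a part of each library. The uncalled ones held most of it, on average 80.8% of the expected counts with acetochlor and 79.4% in control. As a description, since the calls came from these libraries, the risen transcripts took 12.9%, 11.5% and 14.99% of the expected counts with acetochlor, against 4.13%, 5.30% and 3.38% in control. The fallen transcripts took 5.39%, 6.02% and 6.65% with acetochlor, against 17.7%, 14.6% and 16.5% in control. A small number of transcripts carried part of this exchange, and the larger part was spread over the others. The 10 largest rises made up 25.02% of the summed CPM gain of all risen transcripts and the 10 largest falls 27.3% of the summed loss.

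**Figure D5:**
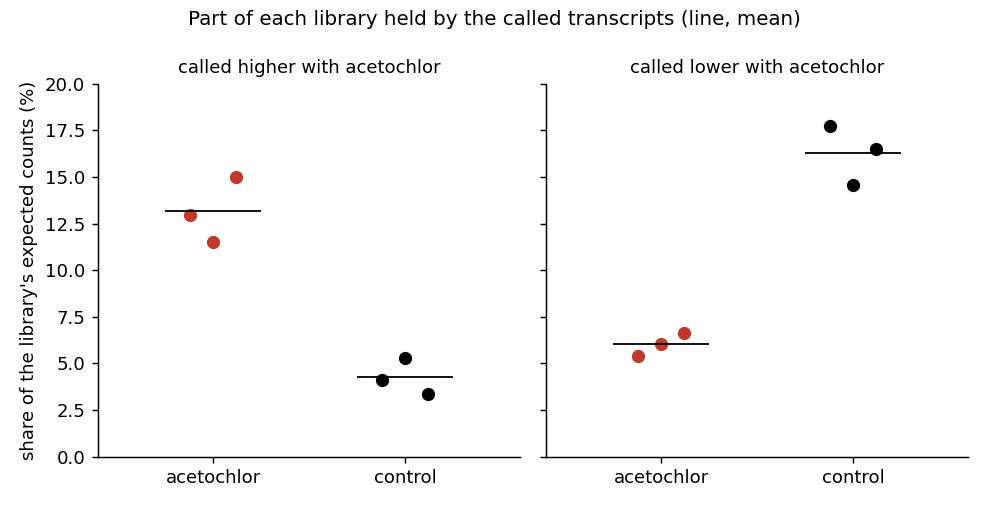
Share of each library's expected counts (vertical axis, %) held by the transcripts called higher (left panel) and called lower (right panel), with 1 point per library and a line at the mean. Risen transcripts held 11.5% to 14.99% of the acetochlor libraries and 3.38% to 5.30% of the control libraries; fallen ones held 5.39% to 6.65% of the acetochlor and 14.6% to 17.7% of the control libraries.

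Hardly any transcript met a rule for being switched fully on or off that also asked for at least 1 CPM. Without such a minimum, 36 of the 148 calls at 16-fold and over had no counts in the lower group. With off defined as an expected count that rounds to 0 in all 3 libraries of a group, and on as at least 1 CPM in all 3 of the other, 3 of the 20602 listed transcripts were on with acetochlor and off in control, and 2 were off with acetochlor and on in control. All were at low levels except TRINITY_DN7704_c0_g1_i7_5, which held 13.2, 22.6 and 16.2 CPM with acetochlor and was at 0 in control. It was at least 273-fold higher with acetochlor, counted against a floor of 3 fragments over the control group. No p is given for the transcripts in this count, since they were chosen on the same contrast. With trifluralin it held 4.44, 3.30 and 2.89 CPM, so its presence was not limited to acetochlor. Leaving out 1 library gave up to 8 on (without control replicate 2) and up to 4 off (without control replicate 1 or 2, or acetochlor replicate 2 or 3), and 5 on without control replicate 3. The 5 identifiers in this count were named after their values were seen.

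TRINITY_DN9829_c0_g1_i1_2 held 2.77, 1.68 and 2.07 CPM with acetochlor and TRINITY_DN9140_c0_g1_i1_5 held 1.64, 1.64 and 3.54 CPM, with both at 0 in control. They were at least 32.7-fold and at least 2.87-fold higher. The second bound is low because 1 fragment of that transcript was taken as up to 17.3 expected counts. TRINITY_DN14648_c0_g1_i1_1 and TRINITY_DN8062_c1_g18_i1_3 were at 0 with acetochlor. In control they held 1.06, 1.82 and 1.17 CPM, and 1.20, 1.06 and 1.20 CPM, at least 8.30-fold and 6.36-fold lower with acetochlor. Each of these 4 had counts with the other 3 herbicides.

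The number of transcripts seen per library did not set the groups apart. A count of 1 or more was found for 17485, 17657 and 18156 listed transcripts with acetochlor, against 17925, 17963 and 17696 in control. The means of 17766 ± 349 and 17861 ± 144 (SD, n = 3 each) gave an exact two-sided permutation p of 0.7, where 3 against 3 libraries cannot go below 0.1. In all, 1713 transcripts were at 0 in every acetochlor library, 1597 in every control library and 1220 in all 6.

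Per transcript, the typical spread between libraries was close in both groups, although control replicates 2 and 3 lay farther apart than any acetochlor pair. The SD of log2 CPM over the 3 libraries of a group had a median of 0.40 with acetochlor and 0.41 in control, and the SD was larger with acetochlor in 49.5% of the tested transcripts. It exceeded 1 in 2237 transcripts with acetochlor and in 2365 in control. In those acetochlor transcripts the library farthest from the middle one was replicate 1, 2 or 3 in 34.6%, 36.6% and 28.9% of cases, whereas in control it was replicate 1 in 17.5%, replicate 2 in 43.8% and replicate 3 in 38.6%. Risen and fallen transcripts had smaller SDs than the uncalled, with medians of 0.32 and 0.33 with acetochlor, against 0.41 for the uncalled. They were also more abundant, with median levels of 28.1 and 34.9 CPM, against 4.81 CPM over all tested. The median acetochlor SD was 0.67 under 1 CPM and 0.27 at 10 to 100 CPM. The sets were not compared at like abundance, and the test itself selects for a small spread.

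Transcript length and the last digit of the name moved with the response. Length was taken, relative to the median, from the ratio of expected count to FPKM. With the tested transcripts split by length into 4 classes of equal size, the median log2 fold change was -0.12 in the shortest class and 0.12 in the longest. In the longest class the library medians, relative to the mean of the 6, were 0.07, 0.09 and -0.01 with acetochlor, against -0.05, -0.04 and -0.07 in control, so acetochlor replicate 3 lay nearer to the controls than the other acetochlor libraries did. In the shortest class they were -0.11, 0 and 0.01 with acetochlor, against 0.03, 0.04 and 0.15 in control. Acetochlor replicate 1 and control replicate 3 stood apart there, and the other 4 libraries lay close together. Calls were 3.49% of the shortest and 13.8% of the longest class, whose median levels were 0.512 and 45.1 CPM. Names end in a digit between 1 and 5 of unstated meaning, and no assembled gene name occurs more than once with the same digit, while 5051 of 14056 occur with several. The median log2 fold change was 0.19 for names ending in 2, with 197 risen and 57 fallen, and -0.09 for names ending in 1, with 184 and 234. The part of length and of the digit in the result was not tested.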

How the data were processed

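Per the labels, RNA was taken with TRIzol and libraries were made with a VAHTS Universal V6 kit. The submitters' processing notes name Trimmomatic, Bowtie2, DESeq and the mouse build mm10, without versions, whereas the row names are those of a Trinity assembly. Which program counted the fragments is not stated in the sources. The authors deposited expected counts, which are fractional estimates per transcript, and a second deposited table holds FPKM, scaled by length and library total. Whether the expected counts were scaled per transcript is not stated. Low values of some transcripts came in steps above 1, so 1 count may not be 1 fragment. TRINITY_DN14648_c0_g1_i1_1 held 7.60, 7.46 and 3.65 expected counts in the S-metolachlor libraries. The edgeR fit treated all values as fragment counts. How reads shared by near-identical transcripts were divided is unknown, so values of near-identical transcripts are uncertain.

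These counts were rounded, although the design assumed raw counts, and filtered with filterByExpr (minimum count 10, minimum total 15), which kept 17555 of 20602 transcripts. The filter used all 5 groups, so a transcript could pass through another herbicide's libraries. All 15 libraries entered 1 edgeR 4.0.16 quasi-likelihood fit with TMM scaling and 1 mean per group. P-values were adjusted by Benjamini-Hochberg over all transcripts tested and calls made under 0.05. CPM values are TMM-scaled, and SDs of log2 CPM used a prior count. Standard errors follow from the fold change and the F statistic. Bounds against 0 used a floor of 3 fragments in the whole group, with 1 fragment set to the highest count within 1.5 times the lowest one that does not round to 0, and to at least 1, and cover counting error only. Named by rule were the 2 largest rises and 2 largest falls in mean CPM among calls of at least 2-fold without overlap. Members, rule and tests were chosen with earlier results of these data known. Scripts were tested on simulated data. Alternatives used limma 3.58.1 on log2(FPKM + 1) or log2(FPKM + 0.1), DESeq2 1.42.0, other scaling, no filter, sums per Trinity gene and fewer libraries. Those sums joined rows whose names end in different digits, and the digit's meaning is unstated, so they may have joined unrelated transcripts. R 4.3.3 and Python 3.11.15 were used.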

Additional observations from a re-analysis of the deposited data

How the results depend on the processing

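With only the 6 libraries in the edgeR fit 784 transcripts were called, 752 of them at least 2-fold, 45.5% of the calls were higher and 24.9% of the intervals lay within 2-fold (28.7% in the fit over all libraries). DESeq2 called 2847, 1823 of them at least 2-fold and 51.7% higher. Of the calls, 58.2% were higher with limma on log2(FPKM + 1) and 62.3% on log2(FPKM + 0.1). Without the filter 1.09% of transcripts under 1 CPM were called, and 25.8% of all transcripts had groups that stood fully apart. Leaving out each library in turn gave 638 to 1902 calls, 543 to 1458 calls of at least 2-fold, 89 to 260 past the test for more than 2-fold, and 47.3% to 58.2% of calls higher (47.3% without control replicate 1, 49.2% without control replicate 3). Of the 1706 calls, 442 were made in the same direction under all 13 alternatives that tested single transcripts, and none was called in the opposite direction under any of them. The alternatives used the same libraries, so an opposite call was unlikely from the start, and nothing is read from its absence. With a minimum of 5 CPM 1 transcript was switched on and 0 off, with at most 1 count allowed in the group that is off 8 were on, and without single libraries 3 to 8 were on and 2 to 4 off.

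Replicate numbers are shared between groups. Same-numbered acetochlor and control libraries had correlations of their deviations from the group means of -0.09 in each of the 3 pairs. With 3 libraries a group these deviations sum to 0, so whether equal numbers mark a shared batch is not settled by them. Calls of at least 16-fold were more often higher, and calls at 1000 CPM and over more often lower, under each of the 13 alternatives, a comparison chosen after seeing the data. With the replicate block 1276 transcripts were called and 27.0% of intervals lay within 2-fold. At the depth reached, changes under 1 CPM were detectable only when large.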
